A study of Ovis aries with 32 samples.

Results

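Liver and tail adipose tissue (tail fat) of sheep on the control diet were compared in 8 of the 32 RNA-seq libraries of the study, 4 of each tissue. The animals were male Tan sheep, a breed that stores fat in its tail, and were 3 months old when the trial began. They were penned singly with free access to a basal pelleted diet without succinic acid (CON) for 60 days after 10 days of adaptation. In the whole trial 24 sheep were used, 12 per diet, and the other diet held 1% succinic acid (SA). Per the labels' protocols, 4 sheep per diet were sequenced, so the 4 libraries of a tissue come from separate sheep, but nothing in the labels ties a liver library to the tail fat library of the same animal. Both tissues would then come from the same 4 sheep, a pairing that the tests leave out. An alternative fit given at the end pairs libraries by their number, which may not join those of the same sheep. The genes tested are those for which 4 or more of the 8 libraries reached 1 TPM, which was 12397 of the 30722 genes in the table. Some genes that fail this filter, such as ACTA1 and CKM, are described by their values alone. TPM (transcripts per 1000000) measures the abundance of a gene's transcripts per unit of length, as a share of all transcripts of the library.

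The liver makes most plasma proteins, builds glucose, disposes of ammonia as urea, makes bile acids and exports lipid as lipoproteins. Adipose tissue stores triglyceride in the lipid droplets of adipocytes and releases it by lipolysis. In ruminants the gut delivers acetate and propionate rather than glucose. Adipose tissue is then the main place where fatty acids are made, mostly from acetate, and the liver makes glucose from propionate. The comparison gives the division of these tasks between the tissues at the level of transcripts.

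The libraries also differed in their make-up, which bears on every relative value below, and those of tail fat varied most. Mitochondrially encoded genes held 20.2% to 27.8% of TPM in the liver libraries and 46.9%, 22.5%, 70.6% and 61.1% in tail fat 1 to 4. The difference of means was -26.2 percentage points with an exact two-sided permutation p of 0.0857 (n = 4 per tissue), 0.171 after adjustment over the 2 library measures tested. Without tail fat 2 the difference was -35.5 percentage points (exact p = 0.0286), while leaving out any other library gave an exact p of 0.0857 to 0.114. Tail fat 2 overlapped the liver range. Spread was larger in tail fat, where the median SD of log2(TPM + 1) per gene was 0.68 against 0.26 in liver, and 85.7% of genes had the larger SD in tail fat. Correlations of log2(TPM + 1) across genes were 0.949 to 0.968 within liver, 0.847 to 0.946 within tail fat and 0.496 to 0.554 between the tissues.

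**Figure D1:**
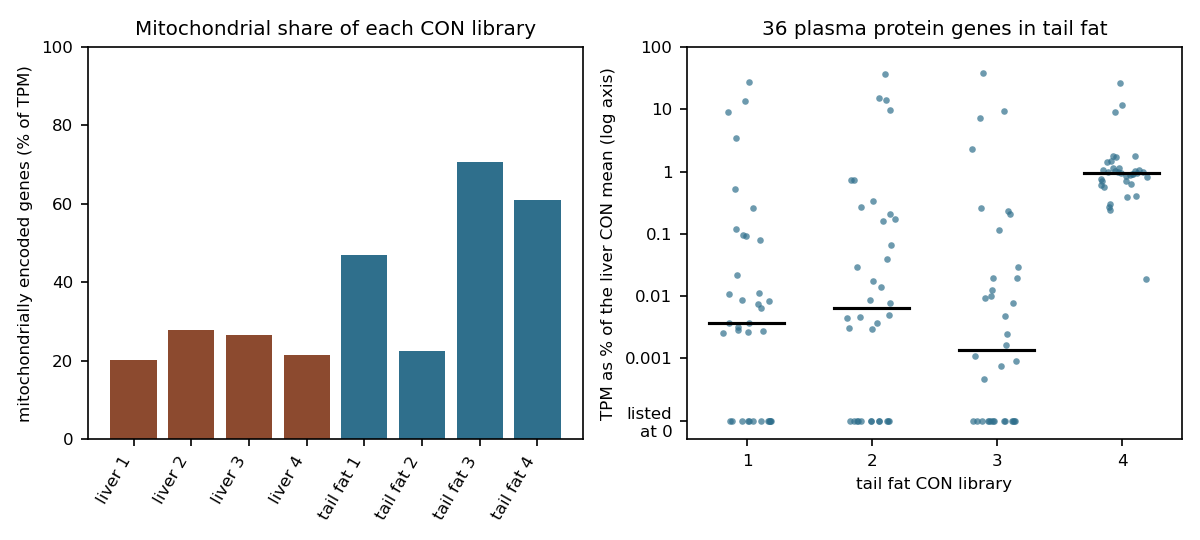
Left, share of TPM from mitochondrially encoded genes in each CON library, liver in brown and tail fat in blue. Right, 36 genes of hepatocyte-made plasma proteins (liver CON mean of 100 TPM or more), each point 1 gene's TPM in a tail fat CON library as a percentage of its liver CON mean on a log axis, with the median as a black line. Tail fat 4 sits near 1% for most genes, and the other libraries have medians of 0.00369%, 0.00643% and 0.00136%.

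Both tissue labels were borne out by the defining markers. Albumin (ALB), transthyretin (TTR), APOA1, SERPINA1 and HNF4A were higher in every liver library than in any tail fat library, and ADIPOQ, PLIN1, LEP, CIDEC and FABP4 were higher in every tail fat library than in any liver library. Tail fat 4 stood apart in carrying a trace of liver transcripts. Over the 36 plasma protein genes its median was 0.963% of the liver mean, and 30 of the 36 lay between 0.3% and 2%. ALB was listed at 1.54, 1.81, 11.3 and 473 TPM in tail fat 1 to 4, TTR at 0, 0, 0 and 69.7 TPM and SERPINA1, the antitrypsin of plasma, at 0.12, 0.16, 0 and 39.6 TPM. The proportion thus lay in that range for most of these genes, but over all 36 it ran from 0.0186% to 26.6%. It did not extend to every liver gene, as HAMP was listed at 0 in that library. Changes of liver genes below include this library unless stated otherwise, and those of the largest size are also given without it.

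Tail fat 2 stood apart in another way. It had the lowest mitochondrial share, the lowest mean correlation with the rest of its group and a median of 209% of the tail fat mean over 11 adipocyte genes. It also held the most transcripts of skeletal muscle. The listed muscle genes summed to 7.86, 132, 11 and 16.64 TPM in tail fat 1 to 4 and to 0.15 to 0.6 TPM in liver. The 2 of them tested were higher in every tail fat library than in any liver library. ACTA1, the muscle actin, was listed at 0, 38.1, 1.44 and 0.36 TPM in tail fat 1 to 4 and CKM, the muscle creatine kinase, at 0.12, 37.2, 0 and 0.13 TPM. SELENOP, a selenium-carrying plasma protein, was at 84.05, 972, 45.96 and 84.3 TPM in tail fat and 4282 to 5758 TPM in liver. CCDC152, which lies next to SELENOP in the RefSeq annotation of the sheep assembly ARS-UI_Ramb_v3.0, was at 162, 0.12, 156 and 57.8 TPM in tail fat and listed at 0 in all 4 liver libraries. The strand setting of the counting is not given in the sources used here, so reads of these neighbours may not be told apart.

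Of the 12397 genes, 2783 (22.4%) were higher in liver and 2233 (18.0%) were higher in tail fat at an adjusted p under 0.05 with limma, and 5947 had an unadjusted p under 0.05. Changes are given as liver minus tail fat on the log2(TPM + 1) scale, which understates the change of genes of low level, and the median over all genes tested was 0.13. The change was 3 or more for 772 of the genes higher in liver and -3 or less for 247 of those higher in tail fat. Liver genes made up 55.5% of the calls, and this share depended on the scaling. It was 49.7% with each library centred on its median, 43.8% after quantile normalization and 29.2% (2341 higher in liver, 5676 higher in tail fat) when mitochondrial and ribosomal RNA were removed and the rest rescaled. Those scalings moved the median over all genes to -0.02, -0.15 and -0.54. No call that was tested again changed sign under any of them. Without tail fat 2 the genes higher in liver numbered 4909.

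**Figure D2:**
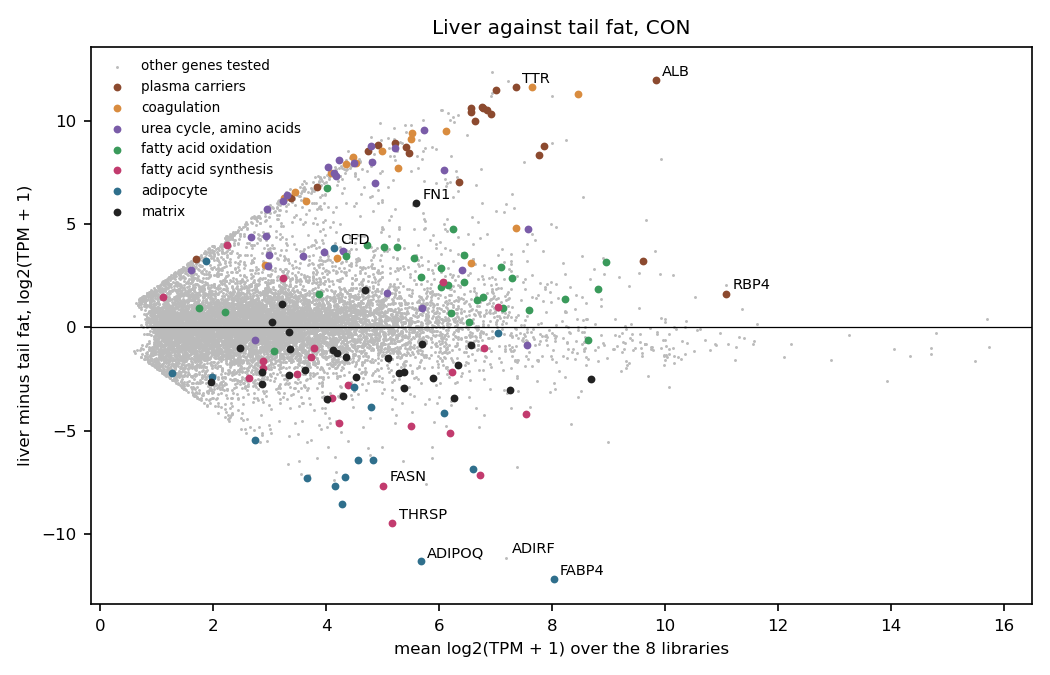
Change between liver CON and tail fat CON (y axis, log2(TPM + 1), liver minus tail fat) against the mean level over the 8 libraries (x axis, mean log2(TPM + 1)). Each grey point is a gene tested and coloured points are members of 7 gene lists. Plasma proteins and urea cycle genes lie on the liver side, up to 11.99 for ALB, and adipocyte and fatty acid synthesis genes on the tail fat side, down to -12.18 for FABP4.

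The largest changes in either direction were the products by which each tissue is known. In liver they belonged to ALB (11.99), the fibrinogen chain FGG (11.66), TTR (11.63), the apolipoprotein APOC3 (11.52), the ethanol-oxidizing CYP2E1 (11.34), the fibrinogen chain FGB (11.31), SERPINA1 (10.67), the apolipoprotein APOH (10.65), the vitamin D carrier GC (10.62) and C-reactive protein (CRP, 10.54). In tail fat they belonged to the fatty acid carrier FABP4 (-12.18), adiponectin (ADIPOQ, -11.34), ADIRF (-11.16), the lipogenic regulator THRSP (-9.48), TRARG1 (-8.55), a regulator of glucose carrier traffic, hormone-sensitive lipase (LIPE, -7.69), fatty acid synthase (FASN, -7.66), the calgranulin S100A8 (-7.60), the droplet protein PLIN4 (-7.28) and FABP5 (-7.23), a further fatty acid carrier. Their adjusted p ranged from 1.88e-10 for ADIRF to 0.000809 for ALB. The liver values and their order moved with tail fat 4. Without it ALB was at 13.67, TTR at 13.16, FGG at 12.69, APOC3 at 12.62, CYP2E1 at 12.58, FGB at 12.25, SERPINA1 at 11.97, GC at 11.96, APOH at 11.84 and CRP at 11.16.

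A stricter description used levels alone. There were 192 genes at 10 TPM or more in every liver library and under 1 TPM in every tail fat library, and 42 of the opposite kind. The first number was 320 without tail fat 4, the library with the trace of liver transcripts. With mitochondrial and ribosomal RNA removed the counts were 115 and 107. Among the 42 were ADIPOQ, THRSP, TRARG1, LIPE, PLIN4, leptin (LEP), the prostaglandin receptor PTGER3, and the adipocyte transcription factors PPARG and EBF1. Hepcidin (HAMP), the liver hormone that blocks iron export, had the highest liver levels among genes listed at 0 in all tail fat libraries, at 380.1, 808, 1266 and 2166 TPM in liver 1 to 4. TPM does not record sequencing depth, so a value of 0 says only that the gene is listed at 0.

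Gene lists are described next, most of them by how many of their members were called, beside the 22.4% and 18.0% of all genes. A gene near 0 in 1 tissue could enter the test only through the other, so such members had to differ, and the counts describe the lists without testing them. In bulk tissue, fewer cells of a type and less RNA per cell cannot be told apart.

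Plasma proteins were the most one-sided group. All 23 carriers and apolipoproteins tested of 27 listed, all 18 of 22 coagulation and fibrinolysis factors and all 18 of 24 complement components were higher in liver, with medians of 8.83, 7.82 and 6.93. ALB was at 67922, 57228, 57724 and 50873 TPM in liver and 1.54, 1.81, 11.3 and 473 TPM in tail fat (change 11.99, SE 1.63, adjusted p = 0.000809). FGB was at 13360.5, 19044, 16404 and 23483 TPM in liver and 1.52, 3.13, 3.59 and 48.6 TPM in tail fat (change 11.31, SE 0.74, adjusted p = 8.3e-08), with no overlap between the tissues. Antithrombin (SERPINC1) was at 2249, 1668, 1681 and 1924 TPM in liver and 0.07, 0.56, 0.19 and 21.3 TPM in tail fat (change 9.50, SE 0.80, adjusted p = 7.42e-07), and its groups did not overlap. Plasminogen (PLG), the precursor of the clot-dissolving protease, was at 1034 to 1470.2 TPM in liver and 0, 0, 0.03 and 8.39 TPM in tail fat. Tail fat 4 gave the highest value here, as for most genes of this group. Without that library the medians of the carriers and the coagulation factors were 9.67 and 8.24, and the changes of SERPINC1 and PLG were 10.54 and 10.21.

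Some plasma protein genes had levels well above the trace in both tissues. The retinol carrier RBP4 was at 4068, 4138, 3690.2 and 3443 TPM in liver and 1046, 1423, 1483 and 1020.3 TPM in tail fat (change 1.64, SE 0.31, adjusted p = 0.000597). The groups did not overlap, yet the tail fat level was 26.6% to 38.7% of the liver mean. In the SA libraries of the same study the order was reversed, with a change of -1.72. In the SA liver libraries the 36 plasma protein genes as a set had medians of 12.7% to 37.4% of the liver CON mean. The part of this in the RBP4 values was not tested. Apolipoprotein E (APOE), a ligand for lipoprotein uptake, was at 2789, 2305, 2154 and 2242 TPM in liver and 328, 338, 171 and 217 TPM in tail fat (change 3.22, SE 0.35, adjusted p = 2.79e-06). PROS1, an anticoagulant cofactor, was at 205, 324, 343 and 263 TPM in liver and 25.98, 43.1, 26.2 and 32.7 TPM in tail fat (change 3.11, SE 0.38, adjusted p = 9.47e-06), and all 4 tail fat libraries held it at similar levels. These genes were singled out after their values were seen.

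The complement components differed in the size of their change. C4BPA, an inhibitor of the classical pathway, changed by 9.10, the pore component C9 by 8.95, the protease CFI by 8.54 and the lectin MBL2 by 8.21. Factor D (CFD), a serine protease also called adipsin and known as an adipocyte product in rodents, was at 57.6, 61.7, 84.6 and 61.9 TPM in liver and 4.98, 3.82, 3.06 and 2.8 TPM in tail fat (change 3.86, SE 0.36, adjusted p = 5.38e-07). Every liver library exceeded every tail fat library by a wide margin. C1QA, a subunit of the recognition protein C1q that macrophages make, was at 173, 163, 266 and 201 TPM in liver and 19.7, 14.9, 5.97 and 9.33 TPM in tail fat (change 4.00, SE 0.43, adjusted p = 2.33e-06). Macrophage markers moved the same way, with all 9 tested of 12 listed higher in liver and summed levels of 253 to 611 TPM in liver against 10.8 to 42.4 TPM in tail fat, and their part in the complement values was not tested.

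Urea cycle and amino acid enzymes were also mostly higher in liver, 25 of 28 tested with a median of 5.26. CPS1, which fixes ammonia in the first step of the urea cycle, was at 1101, 709, 709 and 586 TPM in liver and 0, 0.57, 0 and 6.34 TPM in tail fat (change 8.68, SE 0.57, adjusted p = 1.13e-08). HPD (9.58) and HGD (8.78) of tyrosine breakdown and BHMT (8.13), which methylates homocysteine, were near 0 in tail fat 1 to 3. Glutamine synthetase (GLUL), which fixes ammonia in both tissues, was not called, at 156, 110.4, 159 and 136 TPM in liver and 252, 1049, 69.2 and 210.4 TPM in tail fat (change -0.84, SE 0.62, adjusted p = 0.302). The groups overlapped widely and tail fat 2 was far above the rest. With mitochondrial and ribosomal RNA removed GLUL was called higher in tail fat (change -1.60, adjusted p = 0.00712). The liver-type glutaminase GLS2 was higher in liver (3.47).

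Genes of glucose production were mostly higher in liver or not called. Of 18 genes of glucose production and glycogen, 9 were higher in liver. Glucose 6-phosphatase (G6PC1), the last step of glucose release, was at 1289.7, 250.4, 169 and 87.3 TPM in liver and 0.07, 0.01, 0.02 and 0.86 TPM in tail fat (change 7.79, SE 0.64, adjusted p = 2.04e-07). Liver 1 held several times the level of the other liver libraries. Pyruvate carboxylase (PC), the first step from pyruvate, was at 328, 255, 238 and 272 TPM in liver and 3.54, 6.93, 1.59 and 6.17 TPM in tail fat (change 5.74, SE 0.42, adjusted p = 4.1e-08), with little spread in liver. The cytosolic carboxykinase PCK1 was at 1370.0, 674, 471 and 318 TPM in liver and 13.2, 35.4, 9.49 and 8.64 TPM in tail fat (change 5.34, SE 0.53, adjusted p = 1.08e-06), again highest in liver 1. The liver glycogen synthase GYS2 changed by 5.71. The 3 members higher in tail fat were the muscle-type phosphorylase PYGM (-1.87), the widely expressed phosphatase G6PC3 (-1.58) and the muscle-type synthase GYS1 (-1.03), a call lost without liver 1, 2, 3 or 4 or tail fat 4 (adjusted p 0.0511 to 0.084). Without tail fat 3 the members higher in tail fat numbered 5.

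Propionate enters gluconeogenesis as succinyl-CoA, and 5 of the 7 genes of this route were higher in liver. MMUT, the mutase of the last step, was at 222, 179, 141 and 145 TPM in liver and 4.32, 55.3, 2.8 and 4.37 TPM in tail fat (change 4.26, SE 0.69, adjusted p = 0.000178). Tail fat 2 was far above the other tail fat libraries and all liver libraries were above it. ACSS3, which activates propionate, was at 82.3, 65.2, 48.4 and 45.8 TPM in liver and 2.17, 3.57, 2.01 and 1.45 TPM in tail fat (change 4.22, SE 0.37, adjusted p = 3.25e-07), and the carboxylase subunit PCCA changed by 3.00. The epimerase MCEE (1.51) and the carboxylase subunit PCCB (1.44) were the other two, the last of them lost without liver 1, 2, 3 or 4 or tail fat 1, 3 or 4 (adjusted p 0.0609 to 0.102). With mitochondrial and ribosomal RNA removed 4 of the 7 remained higher in liver and 1 was higher in tail fat.

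Fatty acid synthesis lay on the tail fat side. Of 22 genes tested of 24 listed, 16 were higher in tail fat and 4 in liver, with a median of -2.20. FASN, which builds palmitate, was at 1.95, 0.99, 1.06 and 1.13 TPM in liver and 236, 1278, 298 and 476 TPM in tail fat (change -7.66, SE 0.49, adjusted p = 9.53e-09). ACSS2, which activates acetate in the cytosol, was at 17.7, 10.8, 8.32 and 10.7 TPM in liver and 278, 1574, 176 and 418 TPM in tail fat (change -5.09, SE 0.57, adjusted p = 4.08e-06). ACACA, the carboxylase that commits acetyl-CoA to synthesis, was at 2.29, 2.47, 3.23 and 2.98 TPM in liver and 64.4, 290.1, 45.8 and 84.04 TPM in tail fat (change -4.65, SE 0.50, adjusted p = 2.71e-06). In all these genes the lowest tail fat library was above the highest liver library, and tail fat 2 was the highest.

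The desaturase SCD was at 11.7, 7.34, 7.75 and 5.7 TPM in liver and 719, 6075, 444 and 1259 TPM in tail fat (change -7.14, SE 0.64, adjusted p = 4.3e-07). ACLY, which makes acetyl-CoA from citrate and is of minor use in ruminants, was at 4.49, 3.9, 4.32 and 4.08 TPM in liver and 56.9, 332, 10.3 and 44.7 TPM in tail fat (change -3.44, SE 0.76, adjusted p = 0.00271). In tail fat 3 it was little above liver. The NADPH-producing enzymes PGD (-2.14) and ME1 (-1.96) of the same list were higher in tail fat. The 4 members higher in liver were ELOVL2 (3.97), FADS1 (2.39), ELOVL5 (2.19) and SCD5 (1.49), of which the first 3 lengthen or desaturate polyunsaturated fatty acids. The call of ELOVL5 was lost without tail fat 3 or 4 (adjusted p 0.0513 to 0.055).

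The genes that turn fatty acids into triglyceride divided less. Of 13 tested, 3 were higher in tail fat, 2 in liver and 8 were not called. AGPAT2, which makes phosphatidic acid, was at 108, 89.4, 82.7 and 95.6 TPM in liver and 919, 1029.6, 337 and 931 TPM in tail fat (change -2.97, SE 0.41, adjusted p = 3.26e-05). DGAT2 of the last step changed by -2.52 and GPAM of the first step by -1.76, and AGPAT3 (2.10) and LPIN2 (1.63) were higher in liver. The change of GPAM was -1.13 without tail fat 2. Its call was lost without liver 4 (adjusted p = 0.0748) and that of LPIN2 without liver 1, 2, 3 or 4 or tail fat 1, 3 or 4 (adjusted p 0.0649 to 0.149). With mitochondrial and ribosomal RNA removed, 7 were higher in tail fat and 1 in liver. The members higher in liver numbered 4 without tail fat 2. The median of the list, -0.45, was 0.08 without tail fat 2 and 0.16 without liver 4, where 2 members, AGPAT2 and DGAT2, were higher in tail fat.

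Of 20 lipid droplet and lipase genes, 8 were higher in each tissue. This even count depended on the scaling, with 6 higher in liver and 11 in tail fat when mitochondrial and ribosomal RNA were removed, and 7 and 10 after quantile normalization. On the tail fat side were LIPE, at 0.25, 0.23, 0.23 and 0.26 TPM in liver and 365, 689, 114 and 149 TPM in tail fat (change -7.69, SE 0.51, adjusted p = 1.18e-08), the droplet coat proteins PLIN4 and PLIN1, the droplet-fusing CIDEC and CIDEA, the first-step triglyceride lipase PNPLA2 (-2.54), lipoprotein lipase (LPL, -6.43) and its anchor GPIHBP1 (-1.98). On the liver side, hepatic lipase (LIPC) was at 69.6, 77.8, 54.3 and 58.5 TPM in liver and 0.16, 0.18, 0.15 and 0.17 TPM in tail fat (change 5.81, SE 0.33, adjusted p = 3.38e-09), and tail fat 4 was no higher than the rest of its group. PLIN2, the droplet coat protein of non-adipose cells, was at 347, 177, 311 and 272 TPM in liver and 16.6, 69.3, 4.85 and 6.88 TPM in tail fat (change 4.12, SE 0.64, adjusted p = 9.43e-05), and CIDEB, which loads lipid onto lipoproteins, changed by 6.51. The monoglyceride lipase MGLL and the lipase co-activator ABHD5 were not called, at 30.4 to 51.7 TPM in liver against 51.1 to 79.2 TPM in tail fat and 17.01 to 30.3 TPM in liver against 18.4 to 91.98 TPM in tail fat respectively. With mitochondrial and ribosomal RNA removed both were called higher in tail fat (changes -1.60 and -1.44, adjusted p = 0.000485 and 0.0025).

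**Figure D3:**
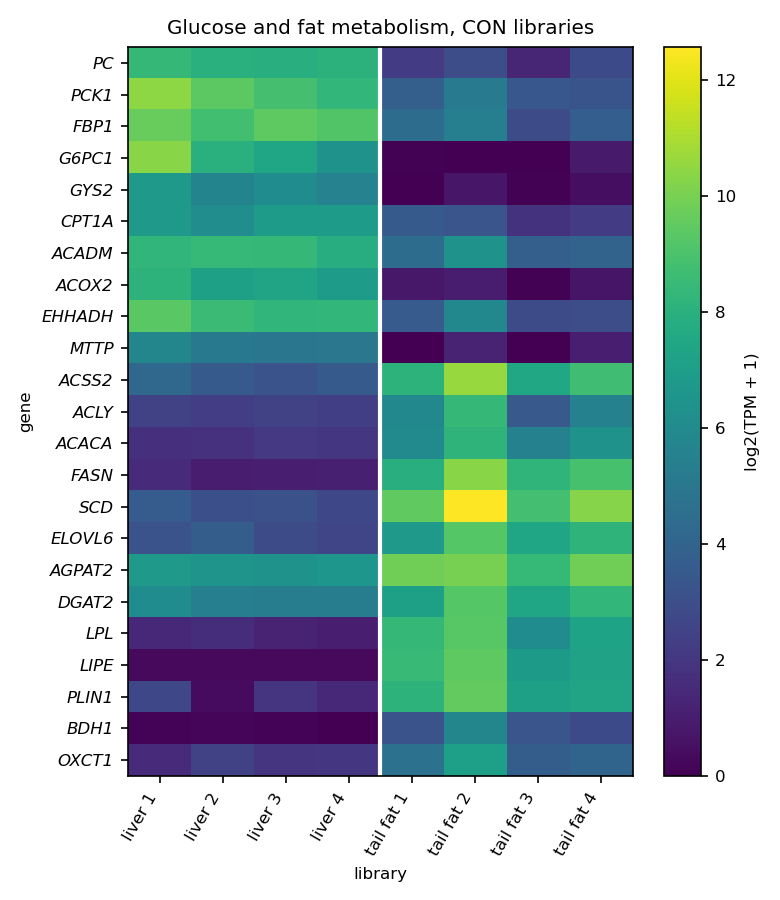
Level, as log2(TPM + 1) on the colour scale, of 23 genes of glucose and fat metabolism (rows) in the 4 liver CON and 4 tail fat CON libraries (columns, separated by a white line). Genes of glucose production, oxidation and lipoprotein export from PC to MTTP are bright on the liver side and those of fatty acid synthesis, storage and ketone use from ACSS2 to OXCT1 on the tail fat side, brightest in tail fat 2.

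Fatty acid oxidation was higher in liver for 21 of 29 genes, with a median of 2.06. CPT1A, which admits long-chain fatty acids to mitochondria, was at 107, 71.6, 123 and 124 TPM in liver and 10.9, 9.03, 2.62 and 3.48 TPM in tail fat (change 3.98, SE 0.45, adjusted p = 4.55e-06). ACOX2 of peroxisomes was at 281, 139.5, 160.5 and 123 TPM in liver and 0.74, 1, 0.04 and 0.63 TPM in tail fat (change 6.75, SE 0.40, adjusted p = 4.5e-09), and EHHADH (4.78) and the activating enzyme ACSL5 (3.91) followed. With mitochondrial and ribosomal RNA removed 19 were higher in liver and 2 in tail fat, with a median of 1.32. In the SA libraries 10 were higher in liver and 8 in tail fat, with a median of 0.16, and there the liver libraries had mitochondrial shares of 51.7% to 70.9%, whose part was not tested.

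Genes that use ketone bodies were higher in tail fat. OXCT1, the enzyme that commits ketone bodies to use, was at 1.96, 4.51, 2.69 and 3.02 TPM in liver and 25.97, 135, 12.2 and 15.5 TPM in tail fat (change -2.92, SE 0.60, adjusted p = 0.00109). AACS, which activates acetoacetate for lipid synthesis, was at 0.8, 1.08, 0.87 and 1 TPM in liver and 10.5, 22.8, 7.06 and 17.9 TPM in tail fat (change -2.89, SE 0.37, adjusted p = 1.81e-05). All tail fat libraries were above all liver libraries in both genes. BDH1, which interconverts the ketone bodies in mitochondria and is known as a liver enzyme in rodents, was at 0.09, 0.16, 0.09 and 0.01 TPM in liver and 8.29, 53.8, 8.88 and 6 TPM in tail fat (change -3.66, SE 0.52, adjusted p = 4.25e-05), while BDH2 (1.63) and the carrier SLC16A1 (1.60) were higher in liver.

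The tricarboxylic acid cycle and pyruvate dehydrogenase genes had 6 of 26 higher in liver, a share close to that of all genes, 2 in tail fat and 18 not called. The liver members were SUCLG2 (3.32), the GTP-forming subunit of succinyl-CoA synthetase, IDH2 (2.53), the kinase PDK4 (2.35), which restrains pyruvate dehydrogenase, PDHB (1.92) and the succinate dehydrogenase subunits SDHD (1.70) and SDHC (1.39). Citrate synthase (CS) was at 10.4, 13.4, 16.7 and 24.1 TPM in liver and 34.2, 104, 25.2 and 27.4 TPM in tail fat (change -1.31, SE 0.48, adjusted p = 0.0397) and OGDH changed by -1.45, both higher in tail fat. The changes of CS and OGDH were -0.86 and -0.95 without tail fat 2. Borderline calls were those of CS, lost without liver 1, 2 or 3 or tail fat 1 (adjusted p 0.0697 to 0.124), and OGDH, lost without liver 2, 3 or 4 or tail fat 4 (adjusted p 0.0541 to 0.0912). Likewise PDK4 was lost without liver 1 or tail fat 3 or 4 (adjusted p 0.0633 to 0.0665) and SDHC without liver 1, 2, 3 or 4 or tail fat 1, 3 or 4 (adjusted p 0.0679 to 0.129). Of the 2 members higher in tail fat, neither was called without liver 2 or 3, and 4 members were higher in tail fat without tail fat 3. The direction of the list as a whole was not settled. Its median of 0.58 became -0.17 with mitochondrial and ribosomal RNA removed, and the count became 20 higher in liver and 2 in tail fat without tail fat 2, and 15 and 4 with library weights. Of the transcripts of the mitochondrial genome itself, 8 of 12 tested were higher in tail fat, among them ND3 (-2.58) and COX3 (-1.64). This count was 3 without liver 1, tail fat 3 or tail fat 4, 4 without tail fat 1 and 5 without liver 4.

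Glycolysis had 8 of 20 genes higher in tail fat and 5 in liver. The counts were 13 and 3 with mitochondrial and ribosomal RNA removed, and 13 and 5 after quantile normalization. Aldolase A (ALDOA) was at 46.5, 59.6, 70.01 and 77.4 TPM in liver and 1812, 2368, 991 and 1726 TPM in tail fat (change -4.70, SE 0.38, adjusted p = 1.11e-07). Every tail fat library was far above every liver library. The liver glucose carrier SLC2A2 changed by 7.30 and the insulin-responsive carrier SLC2A4 by -2.40.

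The genes of a family often differed in the tissue that held them. For 17 pairs of genes of like function, the share of the pair's summed TPM held by the first gene was taken in each library, a measure that other transcripts of the library do not alter. This measure was chosen after values were seen, so no test is given. The shares of the tissues did not overlap in 16 pairs, and the first gene had the higher share in liver in 13 of those 16. Most pairs were listed with the gene known from liver first, so these counts partly restate how the pairs were chosen and ordered. The fatty acid carrier FABP1 held 99.7% to 99.9% in liver and 0% to 0.130% in tail fat of its pair with FABP4. SLC2A2 held 99.3% to 99.9% in liver and 0% to 8.28% in tail fat of its pair with SLC2A4. The upper ends in tail fat for FABP1, SLC2A2 and, below, AQP9 came from tail fat 4, the library with the trace of liver transcripts. LIPC held 97.4% to 98.1% in liver and 0.0282% to 0.222% in tail fat of its pair with LPL. The nuclear receptor PPARA, which drives oxidation, held 93.6% to 98.6% in liver and 0.966% to 2.36% in tail fat of its pair with PPARG, which drives storage. In these pairs a different gene made up over 90% of the summed level in each tissue.

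In other pairs the second gene kept a larger share in liver. The methionine adenosyltransferase MAT1A held 69.4% to 83.5% in liver and 0.0938% to 6.90% in tail fat of its pair with MAT2A. The glycerol channel AQP9 held 48.5% to 78.1% in liver and 0% to 3.21% in tail fat of its pair with AQP7, the channel known from adipocytes, and AQP7 was also at 199.7, 71.99, 167 and 81.5 TPM in liver and at 176, 270.5, 85.7 and 106 TPM in tail fat and was not called (adjusted p = 0.668). With mitochondrial and ribosomal RNA removed AQP7 was called higher in tail fat (change -1.05, adjusted p = 0.017). Liver pyruvate kinase (PKLR) held 41.4% to 62.3% in liver and 0.115% to 1.41% in tail fat of its pair with PKM, so the liver held similar levels of both.

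In 3 pairs the first gene had the lower share in liver. The mitochondrial carboxykinase PCK2 held 15.1% to 33.03% in liver and 80.3% to 88.7% in tail fat of its pair with PCK1, and PCK2 itself was at 243, 128, 185 and 157 TPM in liver and 104, 145, 56.3 and 59.1 TPM in tail fat and was not called (change 1.04, SE 0.42, adjusted p = 0.062). The insulin receptor substrate IRS2 held 56.8% to 91.03% in liver and 93.8% to 98.7% in tail fat of its pair with IRS1. The phosphofructokinase PFKL held 62.7% to 86.9% in liver and 92.3% to 94.7% in tail fat of its pair with the muscle form PFKM. The pair whose shares overlapped was that of the phosphatidate phosphatases LPIN2 and LPIN1.

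**Figure D4:**
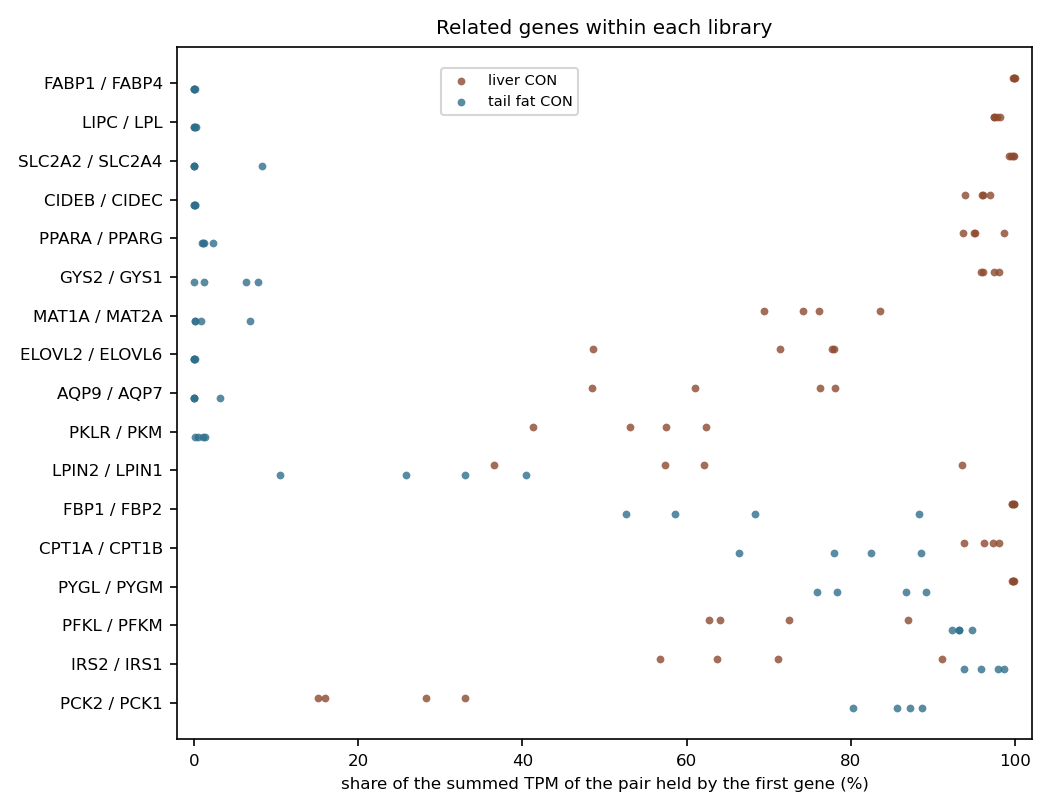
Share (x axis, %) of the summed TPM of 2 related genes that the first named gene held in each of the 4 liver CON (brown) and 4 tail fat CON (blue) libraries, for 17 pairs. Points of the tissues are far apart at the top, as for FABP1 with FABP4, and in the opposite order at the bottom, as for PCK2 with PCK1.

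Transcription factors divided in the same manner. Of 15 hepatocyte factors tested 14 were higher in liver, with a median of 3.20. CREB3L3, which acts in fasting lipid metabolism, was at 499, 372, 605 and 562 TPM in liver and 0.18, 0.74, 0.19 and 0.35 TPM in tail fat (change 8.54, SE 0.37, adjusted p = 1.19e-09). PROX1 (5.01), the xenobiotic receptor NR1I2 (5.01) and FOXA3 (4.60) followed. The exception was CEBPA, needed for both cell types, at 46.5, 48.9, 55.7 and 23.5 TPM in liver and 182, 375, 60.97 and 74.9 TPM in tail fat (change -1.65, SE 0.55, adjusted p = 0.0248), where the lowest tail fat library was just above the highest liver library and the call was lost without liver 4 or tail fat 1 (adjusted p 0.0809 to 0.0858).

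Of 16 factors of adipocytes and their precursors, 12 were higher in tail fat and 1 in liver. The count higher in tail fat was 8 to 12 when 1 library was left out and 15 with mitochondrial and ribosomal RNA removed. PPARG, the master regulator of adipocytes, was at 0.33, 0.6, 0.95 and 0.48 TPM in liver and 282, 315, 136 and 142 TPM in tail fat (change -7.02, SE 0.40, adjusted p = 3.74e-09). EBF1, which acts with it, changed by -4.38, and TBX15 (-3.34) and PRRX1 (-2.74), factors of mesenchymal cells, were listed at or near 0 in liver. The member higher in liver was the oxysterol receptor NR1H3 (1.71). SREBF1, which drives fatty acid synthesis genes, was at 5.76, 3.54, 2.86 and 1.54 TPM in liver and 8.43, 28.4, 4.47 and 17.1 TPM in tail fat (change -1.63, SE 0.50, adjusted p = 0.0164), with overlapping groups and the call lost without liver 4 or tail fat 4 (adjusted p 0.0574 to 0.0638).

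Adipocyte genes as a list had 15 of 18 higher in tail fat, with a median of -5.95. FABP4 was at 1.91, 4.22, 2.56 and 2.96 TPM in liver and 21129, 62104, 8711 and 8656 TPM in tail fat (change -12.18, SE 0.55, adjusted p = 1.2e-09). ADIPOQ was at 0, 0, 0 and 0 TPM in liver and 3295, 9604, 1327 and 1071 TPM in tail fat (change -11.34, SE 0.58, adjusted p = 2.08e-09) and LEP, the hormone of fat stores, at 0, 0, 0 and 0 TPM in liver and 31.3, 139.7, 34.6 and 22.6 TPM in tail fat (change -5.47, SE 0.48, adjusted p = 2.67e-07). Tail fat 2 was highest in each, and the tissues did not overlap. The 2 members higher in liver were CFD, above, and resistin (RETN), at 3.71, 15.2, 17.1 and 9.87 TPM in liver and 0.7, 0.25, 0 and 0 TPM in tail fat (change 3.20, SE 0.41, adjusted p = 1.68e-05), a product of adipocytes in mice and of macrophages in humans. Of the thermogenic genes, UCP1, the heat-producing uncoupler of brown fat, was at 0.39, 2.45, 0 and 0 TPM in tail fat and failed the filter, while CIDEA was at 89.6, 74.3, 65.5 and 263 TPM.

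**Figure D5:**
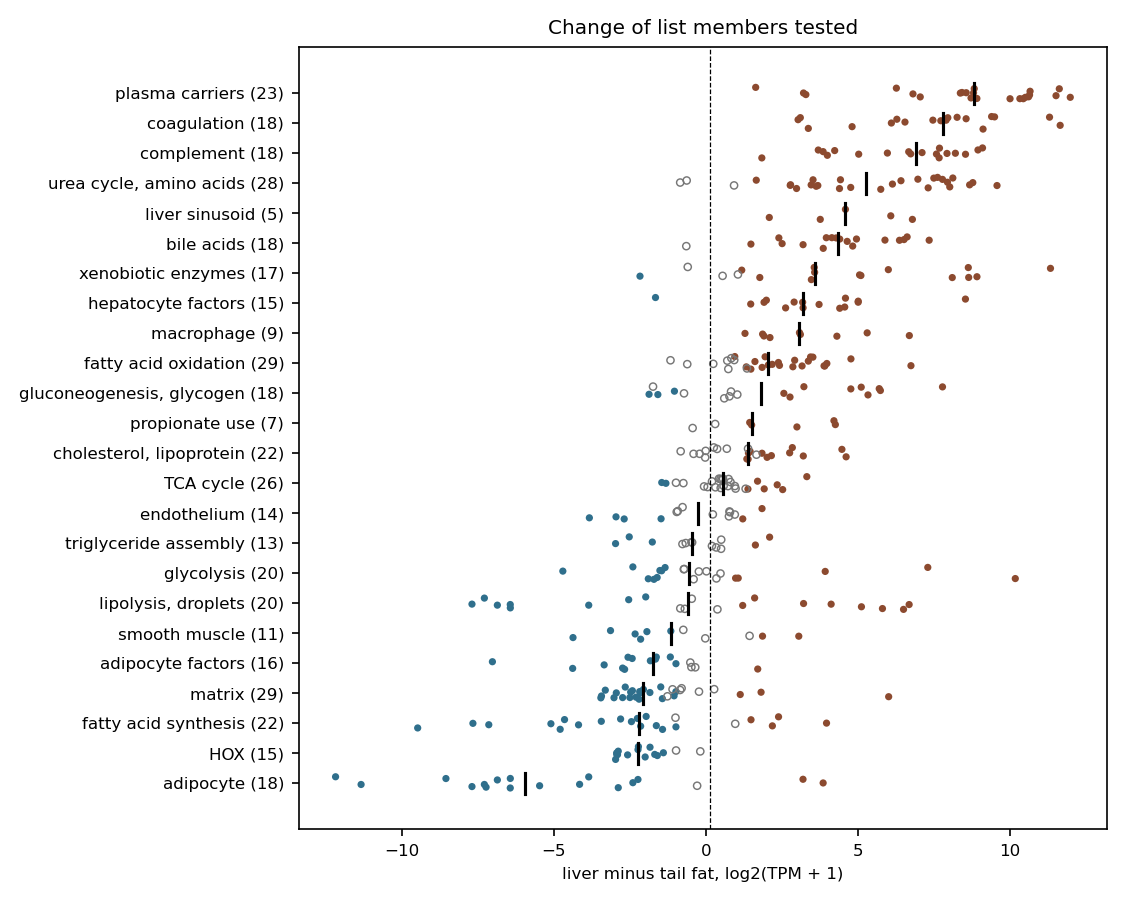
Change between liver CON and tail fat CON (x axis, log2(TPM + 1)) of the members tested in 24 gene lists (y axis, number tested in brackets), ordered by the list median (black bar). Brown and blue points are members higher in liver and in tail fat at an adjusted p under 0.05, open points were not called, and the dashed line is the median of all genes tested at 0.13. Plasma protein lists lie highest and the adipocyte list lowest, while glycolysis and droplet genes extend to both sides.

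Bile acid genes were higher in liver for 17 of 18 tested. The bile acid carrier SLC10A1 was at 329, 222, 215 and 214 TPM in liver and 0, 0.05, 0 and 3.6 TPM in tail fat (change 7.35, SE 0.49, adjusted p = 1.42e-08), CYP8B1 and AKR1D1 of synthesis changed by 6.62 and 6.52, and CYP7A1, the rate-limiting enzyme, was at only 2.06 to 6.69 TPM in liver (2.40). KLB, the co-receptor through which gut FGF19 restrains bile acid synthesis and through which FGF21 acts on fat, was not called, at 6.52, 6.59, 3.65 and 1.77 TPM in liver and 7.41, 45.3, 2.49 and 2.2 TPM in tail fat (change -0.64, SE 0.73, adjusted p = 0.525). FGF21 itself, a fasting hormone of the liver, was at 58.4, 28.4, 38.8 and 39.5 TPM in liver and listed at 0 in all tail fat libraries. The ligand was thus found in liver and the co-receptor in both tissues.

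Xenobiotic enzymes had 13 of 17 higher in liver and GSTM3 (-2.16) higher in tail fat. Of these CYP2E1 was at 10707, 5003, 4861 and 5851 TPM in liver and 0.05, 0, 0.01 and 30.9 TPM in tail fat (change 11.34, SE 1.00, adjusted p = 4.93e-06), and CYP1A2 (8.92), FMO1 (8.65) and CYP3A24 (8.64) followed. Genes of this kind stand in families of similar sequence, between which the counting can divide reads. Only 17 of 33 listed names were matched in the table.

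Cholesterol and lipoprotein genes were higher in liver for 12 of 22. MTTP, which loads lipid onto apolipoprotein B for export, was at 53.3, 32.5, 29.7 and 30.4 TPM in liver and 0, 1.35, 0 and 1.06 TPM in tail fat (change 4.62, SE 0.40, adjusted p = 2.27e-07), and SOAT2, the cholesterol-esterifying enzyme of hepatocytes, changed by 4.48. The synthesis enzymes HMGCS1 (3.21) and SQLE (2.85) were higher in liver. With mitochondrial and ribosomal RNA removed 9 of the list were higher in liver and 2 in tail fat.

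Of 10 iron genes tested 5 were higher in liver and 1 in tail fat, and 8 were higher in liver without tail fat 2. Besides HAMP (change 9.91, SE 0.48, adjusted p = 1.43e-09), its regulators TMPRSS6 (5.61), HJV (4.23) and TFR2 (4.08) and the heme-synthesis enzyme ALAS1 (1.52) were higher in liver. The call of ALAS1 was lost without liver 1, 2 or 3 or tail fat 1, 3 or 4 (adjusted p 0.0713 to 0.167). The ferritin heavy chain FTH1, whose reads can be shared with copies elsewhere in the genome, was at 2618, 2978, 2861 and 2321 TPM in liver and 11516, 13282, 4522 and 4052 TPM in tail fat (change -1.44, SE 0.41, adjusted p = 0.0103), higher in tail fat but not called without tail fat 1 (adjusted p = 0.0559). Of 34 genes of hormone action and the IGF axis, 16 were higher in liver, 6 in tail fat and 12 were not called, and 11 were higher in tail fat with mitochondrial and ribosomal RNA removed. The glucagon receptor GCGR was at 26.2 to 47.05 TPM in liver and 0 to 0.19 TPM in tail fat (change 4.99, SE 0.33, adjusted p = 1.16e-08). HSD11B1, which regenerates cortisol, was at 1609, 1652, 1343 and 1328 TPM in liver and 17.1, 41.4, 5.16 and 14.7 TPM in tail fat (change 6.48, SE 0.50, adjusted p = 6.67e-08). The leptin receptor LEPR was higher in liver (3.31), opposite to its ligand, and PTGER3, which restrains lipolysis, was higher in tail fat (-4.94).

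IGFBP1, a fasting-induced binding protein, spread widely between liver libraries, at 1307, 80.4, 60.5 and 19.6 TPM in liver 1 to 4 (change 6.28, SE 1.07, adjusted p = 0.000955). Liver 1 was also the highest liver library for G6PC1, PCK1, PDK4 at 1086, 307, 380.0 and 224 TPM and IRS2 at 42.02, 5.82, 8.2 and 5.92 TPM. These genes were singled out after their values were seen. Of other genes given here, liver 1 was the highest for FASN, DGAT2 and SREBF1 and not for CPT1A or CREB3L3. The cause was not tested.

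Branched-chain amino acid genes had 5 of 14 higher in liver and 2 in tail fat, the latter the first and a regulatory step. BCAT2, the aminotransferase that starts the breakdown of these amino acids, was at 5.08, 114, 2.7 and 5.19 TPM in liver and 96.1, 269.6, 100.1 and 88.6 TPM in tail fat (change -3.47, SE 0.93, adjusted p = 0.011). The tissues overlapped only through liver 2, which was far above the other liver libraries, and the call was lost without tail fat 2 (adjusted p = 0.09). The phosphatase PPM1K (-1.84) was also higher in tail fat, lost without liver 3 or 4 (adjusted p 0.0705 to 0.0825) and at -1.13 without tail fat 2. The members higher in liver numbered 8 without tail fat 2. With all libraries they were ACADSB at 5.19, ALDH6A1 at 3.84, ABAT at 2.70, HIBCH at 2.36 and IVD at 2.18, all enzymes of later steps, while the other 7 members were not called.

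Matrix genes were higher in tail fat for 20 of 29 and in liver for 3, with a median of -2.05. Elastin (ELN) was at 4.57, 4, 2.71 and 4.37 TPM in liver and 61.1, 50.6, 39.03 and 61.02 TPM in tail fat (change -3.45, SE 0.36, adjusted p = 1.83e-06), and the basement membrane collagens COL4A1 (-3.43) and COL15A1 (-3.31) followed. The exception of greatest size was fibronectin (FN1), which hepatocytes secrete into plasma, at 442, 369, 355 and 382 TPM in liver and 2.69, 13.04, 1.77 and 7.89 TPM in tail fat (change 6.02, SE 0.50, adjusted p = 1.41e-07). POSTN (1.82) and COL14A1 (1.13) were the other two, the latter lost without liver 1, 2 or 4 or tail fat 1, 3 or 4 (adjusted p 0.0569 to 0.121).

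Markers of other cells were unevenly spread. All 5 sinusoid markers tested were higher in liver, led by OIT3 (6.80) and CLEC4G (6.09), and all 8 lymphocyte markers tested of 12 listed were higher in liver, with summed levels of 23.3 to 65.4 TPM against 1.14 to 5.89 TPM. The scavenger receptor MARCO of liver macrophages was at 44.2, 115, 267 and 172 TPM in liver and 0, 0, 0 and 1.11 TPM in tail fat (change 6.70, SE 0.51, adjusted p = 5.72e-08). Of 14 endothelial genes 4 were higher in tail fat, CLDN5 (-3.83), VWF (-2.95), ROBO4 (-2.68) and EMCN (-1.47), and 2 in liver, TEK (1.85) and TIE1 (1.22), while 8 were not called. The count higher in liver was 6 without tail fat 2. With mitochondrial and ribosomal RNA removed 7 were higher in tail fat and 1 in liver, and after quantile normalization 7 and 2. The call of TIE1 was lost without liver 1, 2 or 4 or tail fat 1 (adjusted p 0.0508 to 0.094). Of 11 smooth muscle and mural genes 6 were higher in tail fat, led by MCAM (-4.37) and RGS5 (-3.13), and MYH11 (3.06) and DES (1.87) were higher in liver.

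Fibroblast and precursor markers divided 6 to tail fat and 3 to liver. CD34, a surface protein of adipose stromal and endothelial cells, was at 2.61, 3.34, 1.11 and 2.91 TPM in liver and 24.9, 46.4, 27.4 and 92.6 TPM in tail fat (change -3.66, SE 0.45, adjusted p = 1.06e-05), and THY1 changed by -3.19. On the liver side DPP4, a peptidase that marks adipose precursors in mice, was at 65.04, 61.7, 51.5 and 37.5 TPM in liver and 0.16, 0.67, 0.31 and 0.54 TPM in tail fat (change 5.26, SE 0.35, adjusted p = 1.18e-08), and DLK1 (1.61) and PDGFRA (1.48) were the other two. Tail fat also held S100B, a protein of glia and of adipocytes, at 2.97, 15.5, 9.71 and 3.59 TPM in liver and 83.2, 258, 66.9 and 81.01 TPM in tail fat (change -3.80, SE 0.54, adjusted p = 4.48e-05), whereas the Schwann cell gene SOX10 was at 0 to 0.5 TPM there.

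HOX genes, which encode position along the body axis, were mostly higher in tail fat, with summed levels of 58.9 to 149 TPM there and 7.9 to 13.4 TPM in liver. Of 35 found, 20 were below the filter and 13 of the 15 tested were higher in tail fat. HOXA9, HOXA10 and HOXC9 were listed at 0 in all liver libraries and were at 5.28, 9.78, 5.21 and 7.08, 8.74, 14.8, 2.8 and 4.71 and 10.5, 6.57, 3.91 and 6.37 TPM in tail fat 1 to 4. HOXD8 was at 0.06, 0.12, 0.12 and 0.13 TPM in liver and 9.14, 21.9, 4.54 and 3.36 TPM in tail fat (change -2.97, SE 0.43, adjusted p = 5.25e-05). Of the most posterior groups, HOXC10 was at 2.52, 12.1, 0.25 and 1.95 TPM in tail fat and HOXA13 at 0.08, 0.96, 0.03 and 0.38 TPM, the highest in tail fat 2 for both, and HOXD13 was listed at 0 in all 8 libraries.

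Immediate early genes, which respond within minutes to handling and to hormones, were higher in tail fat for 7 of 14. FOS was at 7.68, 4.86, 3.53 and 5.09 TPM in liver and 99.1, 155, 24.1 and 33.4 TPM in tail fat (change -3.31, SE 0.54, adjusted p = 0.000148) and KLF4 changed by -3.48, NR4A1 by -2.79 and FOSB by -2.72. The call of NR4A1 was lost without tail fat 2 (adjusted p = 0.0741).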

How the data were processed

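RNA-seq values of 4 liver and 4 tail fat libraries of the CON diet were analysed. The authors deposited TPM values, transcript abundances per unit of length that share a fixed total in each library. The tools were fastp, HISAT2 and RSEM per the submitters' processing notes (versions, genome build, annotation and strand setting not given in the sources used here), so no coordinates are printed. Per the labels' protocols, stranded libraries were made from mRNA captured on oligo(dT) beads. The table sums to 951010 to 986216 TPM in these libraries. Read depth cannot be had from TPM and is unknown, and no value carries a counting interval. 8 columns of group means were not used. Where 64 names stood on several table entries, the entry with the highest mean kept the name, and 13350 genes had no name.

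The 12397 genes that reached 1 TPM in 4 or more libraries entered the test, on log2(TPM + 1) with a pseudocount of 1, by limma 3.58.1 in R 4.3.3 (empirical Bayes with a mean trend and robust settings, tissue only). Adjusted p means the two-sided p after Benjamini-Hochberg correction over these genes, and genes under 0.05 are called. The test was tried on simulated data. The comparison and the gene lists were chosen with earlier results of these data known. Genes named are the 10 of largest change in each direction, up to 4 called and 2 uncalled members per list, the genes of 17 related pairs, and SELENOP and CCDC152. Some genes and pairs that the rule takes in are not reported here. All other genes named were chosen after their values were seen.

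Whether equal library numbers pair the tissues was checked from the deviations of log2(TPM + 1) from the group means. Correlations were 0.0122, -0.0448, 0.149 and 0.104 for numbers 1 to 4. The best match in tail fat had the same number for liver 3 and 4, while liver 1 matched tail fat 2 best and liver 2 matched tail fat 1. These values cannot show whether the samples are paired, so the numbers were not taken to pair them and the main fit was unpaired. Alternatives were other pseudocounts, filters and scalings, library weights, no trend, a replicate block, the SA libraries and leaving out each library. Leaving out tail fat 2 and 4 together, and tail fat 4 with mitochondrial and ribosomal RNA removed, were chosen after seeing the data.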

Additional observations from a re-analysis of the deposited data

Results flagged for a closer look

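In groups of 4 libraries, the highest or lowest library of a gene is listed here when its gap to the nearest other library is large. The gap as a share of the whole range must exceed the critical value of Dixon's test. For normally distributed values chance gives this in about 1 of 20 groups. Here the rule was applied to TPM, in the same libraries throughout and to genes partly chosen after their values were seen. The counts below can therefore not be set against that rate. Where all other libraries of the group are listed at 0, any value above 0 meets the rule, and that rate does not apply. Examples are CYP7A1 and TMPRSS6 in tail fat and ACTA1, CKM, HOXA13 and PRRX1 in liver. Of 387 groups of named genes examined, 95 met the rule, 74 in tail fat and 21 in liver. Tail fat 4 was the highest in 35 of them and tail fat 2 in 37.

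Tail fat 4 was far above its group in AKR1D1 at 1.23 TPM, ALB at 473 TPM, APOC3 at 22.2 TPM, APOH at 26.9 TPM, AQP9 at 3.51 TPM, BHMT at 0.55 TPM, C9 at 6.14 TPM, CIDEA at 263 TPM and CPS1 at 6.34 TPM. Also in this library were CRP at 5.22 TPM, CYP1A2 at 2.51 TPM, CYP2E1 at 30.9 TPM, CYP3A24 at 12.7 TPM, CYP7A1 at 0.19 TPM, FABP1 at 11.2 TPM, FGB at 48.6 TPM, FGG at 28.9 TPM and FMO1 at 4.63 TPM. Further values there were G6PC1 at 0.86 TPM, GC at 43.4 TPM, GCGR at 0.19 TPM, HGD at 1.74 TPM, HPD at 11.5 TPM, IGFBP1 at 1.63 TPM, MARCO at 1.11 TPM, MAT1A at 2.26 TPM and MBL2 at 1.39 TPM. The same held for NR1I2 at 2.37 TPM, PLG at 8.39 TPM, SERPINA1 at 39.6 TPM, SERPINC1 at 21.3 TPM, SLC10A1 at 3.6 TPM, SLC2A2 at 0.97 TPM, TMPRSS6 at 0.13 TPM and TTR at 69.7 TPM. Most of these genes are known hepatocyte products, and the level of 36 such genes relative to liver in this library was given above.

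Tail fat 2 was far above its group in ACACA at 290.1 TPM, ACADSB at 26.1 TPM, ACLY at 332 TPM, ACSL5 at 30.1 TPM, ACTA1 at 38.1 TPM, AGPAT3 at 27.7 TPM, ALDH6A1 at 107 TPM, BCAT2 at 269.6 TPM and BDH1 at 53.8 TPM. Also in this library were CKM at 37.2 TPM, COL4A1 at 669 TPM, CS at 104 TPM, EHHADH at 57.4 TPM, ELOVL5 at 152 TPM, GPAM at 277 TPM, HMGCS1 at 34.8 TPM, HNF4A at 16.1 TPM and IVD at 154 TPM. Further values there were KLB at 45.3 TPM, LEP at 139.7 TPM, LPIN2 at 35.7 TPM, ME1 at 45.4 TPM, MMUT at 55.3 TPM, MYH11 at 3.03 TPM, OGDH at 188 TPM, OXCT1 at 135 TPM and PCCB at 121 TPM. The same held for PCK1 at 35.4 TPM, PDGFRA at 6.11 TPM, PDK4 at 412 TPM, PLIN4 at 538 TPM, PPM1K at 71.8 TPM, S100B at 258 TPM, SCD at 6075 TPM, SDHC at 211 TPM and SELENOP at 972 TPM. There also stood UCP1 at 2.45 TPM. This is the library with the lowest mitochondrial share and with the most muscle transcripts, whose part in these values was not tested.

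Tail fat 3, the library with the highest mitochondrial share, was far below its group in AGPAT2 at 337 TPM and PNPLA2 at 158 TPM.

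Liver 1 was far above its group in ACADSB at 407 TPM, CYP2E1 at 10707 TPM, DGAT2 at 67.7 TPM, FASN at 1.95 TPM, G6PC1 at 1289.7 TPM, IGFBP1 at 1307 TPM, IRS2 at 42.02 TPM, LPIN2 at 37.9 TPM and MAT1A at 365 TPM. Also in this library were MTTP at 53.3 TPM and SLC10A1 at 329 TPM. It was far below its group in HOXD8 at 0.06 TPM.

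Liver 2 was far above its group in BCAT2 at 114 TPM, C9 at 1274 TPM and EBF1 at 0.39 TPM. It alone was above 0 in PRRX1, at 0.02 TPM. Liver 3 was far above its group in CFD at 84.6 TPM and ME1 at 6.75 TPM. It alone was above 0 in ACTA1 at 0.08 TPM, CKM at 0.05 TPM and HOXA13 at 0.03 TPM.

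The retinol carrier RBP4 had opposite orders on the 2 diets. Its mean was 2592 TPM higher in liver than in tail fat in the CON libraries, and the difference was -1934 TPM in the SA libraries, with no overlap of the tissues on either diet. The SA liver libraries had mitochondrial shares of 51.7% to 70.9%, and the 36 plasma protein genes had medians there of 12.7% to 37.4% of the liver CON mean. Neither the part of this nor the difference between the diets was tested.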

How the results depend on the processing

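Of the 5016 calls, all kept their direction in every CON alternative that tested them. The genes higher in liver numbered 4541 with library weights and 4977 with tail fat 2 and 4 left out, and 2281 to 4909 when 1 library was left out, the last without tail fat 2. The genes higher in tail fat numbered 1246 with a filter of 5 TPM, 3952 after quantile normalization, 3410 with centred libraries, 5676 with mitochondrial and ribosomal RNA removed, 5295 when tail fat 4 was also left out, 4560 in the SA libraries, and 1753 to 2854 when 1 library was left out. With a replicate block 3071 were higher in liver and 2300 in tail fat, and no named call was lost. This block pairs libraries of equal number, which are not known to come from the same sheep. Genes at 10 TPM or more in every liver library and under 1 TPM in every tail fat library numbered 115 with mitochondrial and ribosomal RNA removed and 193 to 320 when 1 library was left out. Those of the opposite kind numbered 66 at levels of 5 and 0.5 TPM, 107 with that RNA removed and 42 to 57 when 1 library was left out. The mitochondrial difference was -35.5 to -19.4 percentage points when 1 library was left out, the former without tail fat 2 (exact p = 0.0286, the smallest possible). Without any other library the exact p was 0.0857 to 0.114. The causes were not tested. In the SA libraries 61.5% of the calls were kept and 182 were called in the opposite direction.

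In the SA libraries the changes of opposite sign were AGPAT3 (-0.42), ALAS1 (-1.73), COX3 (0.52), ELOVL5 (-1.44), IVD (-1.40), LPIN2 (-1.31), ND3 (0.0672), PCCB (-0.94), PCK2 (-0.34), PDGFRA (-0.12), PDHB (-0.0656), PPARA (-0.00504), RBP4 (-1.72), SDHC (-2.95), SLC16A1 (-1.19), TEK (-0.97) and TIE1 (-0.60). Without tail fat 2 and 4 the changes of opposite sign were GLUL (0.0686). Without liver 4 the changes of opposite sign were LPIN1 (0.16). Without tail fat 2 the changes of opposite sign were AQP7 (0.0159), KLB (0.20) and LPIN1 (0.0834). Of 181 calls of named genes, 135 held in all alternatives that tested them. With mitochondrial and ribosomal RNA removed 7 named calls were lost and 7 named genes not called in the main fit were called. When 1 library was left out the changes spanned -0.53 to 0.02 for AQP7, -1.09 to 0.20 for KLB and -1.41 to 0.16 for LPIN1. Depth limits the low genes, but it is unknown.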
